A study of Mus musculus with 7 samples.

Results

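Repressive chromatin at the Cyp4x1-Cyp4a-Cyp4b1 gene cluster of mouse liver was described from lists of H3K27me3 islands. The members were chosen by position, with earlier results of these data known. They are every island of the 7 lists that overlaps chromosome 4 from 114750000 to 115350000 of the genome build mm9. This window was given as the place of the cluster. The rule took 16 islands out of 122262 in all lists. The livers came from 7-week-old male mice of the outbred CD-1 stock. A dose of 3 mg/kg TCPOBOP was given to 4 of them. The 3 controls were given the vehicle alone (corn oil with 1% DMSO), and the liver was collected 27 h later in both groups. TCPOBOP activates CAR, the constitutive androstane receptor of mice, which in hepatocytes switches on drug-metabolising enzymes. Chromatin of each liver was precipitated separately with an antibody to H3K27me3, so a sample is 1 animal. Whole liver was used, so hepatocytes and the other cells of the organ were measured together, and a mark held by a part of the cells cannot be told apart from a weaker mark in all of them. Neither RNA nor other marks were measured in the files used here, so the tissue was not checked against marker genes.

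H3K27me3 is laid down by Polycomb repressive complex 2 and marks genes that are kept silent, in domains that can span many kilobases. Genes of the Cyp4 family encode cytochrome P450 enzymes that mostly hydroxylate fatty acids at or near the end of the chain. In rodent liver the Cyp4a enzymes are best known as targets of PPAR alpha, the fatty acid sensor. Cyp4a10 and Cyp4a14 are its classical induced genes, and Cyp4a12a and Cyp4a12b are near copies of each other whose products hydroxylate arachidonic acid and are male-biased. Cyp4a31 and Cyp4a32 are further copies in the same array. Cyp4b1 is best known from lung, where it activates some protoxins, and Cyp4x1 from brain.

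All 8 named members were found by symbol in the RefSeq annotation of GRCm38.p6, a later build than that of the islands. Positions of single genes in mm9 were not used here, so no island was assigned to a gene and no value per gene is given. The later annotation served for names and for the order of neighbours. From low to high coordinates that order is Tal1, Pdzk1ip1, Cyp4x1, Cyp4a12a, Cyp4a12b, Cyp4a14, Cyp4a10, Cyp4a31, Cyp4a32, Cyp4b1 and Efcab14, with genes that are not members left out between them. From Cyp4x1 to Cyp4b1 it counts 20 genes. By symbol, 10 of them are protein-coding Cyp4 genes, 4 are Cyp4 pseudogenes and 1 is the noncoding RNA Cyp4x1os. The other 5, pseudogenes and a noncoding RNA, carry Gm symbols, and whether they belong to the Cyp4 family was not determined. Cyp4x1os directly follows Cyp4x1 in the order. Cyp4a29 and Cyp4a30b are the coding Cyp4 genes that are not among the 8. The low end of the window is called the Cyp4x1 end and the high end the Cyp4b1 end below, on the assumption that the order is the same in mm9.

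Promoter sequences were given in the RefSeq table for Cyp4a32 and Cyp4b1 among the 8 members, and for Cyp4x1os, Cyp4a29 and Cyp4a30b among the other genes of the cluster. The promoters of Cyp4x1, Cyp4a10, Cyp4a14, Cyp4a12a, Cyp4a12b and Cyp4a31 are not shown. One sequence from the Cyp4x1 end and both members at the Cyp4b1 end are printed, because the islands lay at the former and the free stretch reached the latter. Each runs 5′ to 3′ from 250 bases before to 50 bases after a start site, in lower case, with capitals at each CpG. Their positions are in GRCm38.p6 and cannot be set beside the mm9 positions of the islands.
Cyp4x1os (chr4:115133582-115133881, + strand, GRCm38.p6): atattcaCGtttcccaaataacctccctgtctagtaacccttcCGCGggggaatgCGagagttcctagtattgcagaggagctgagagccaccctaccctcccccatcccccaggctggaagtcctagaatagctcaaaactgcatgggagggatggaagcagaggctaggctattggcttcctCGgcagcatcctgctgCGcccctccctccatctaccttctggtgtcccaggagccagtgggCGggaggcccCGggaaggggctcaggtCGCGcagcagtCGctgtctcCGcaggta
Cyp4a32 (chr4:115600688-115600987, + strand, GRCm38.p6): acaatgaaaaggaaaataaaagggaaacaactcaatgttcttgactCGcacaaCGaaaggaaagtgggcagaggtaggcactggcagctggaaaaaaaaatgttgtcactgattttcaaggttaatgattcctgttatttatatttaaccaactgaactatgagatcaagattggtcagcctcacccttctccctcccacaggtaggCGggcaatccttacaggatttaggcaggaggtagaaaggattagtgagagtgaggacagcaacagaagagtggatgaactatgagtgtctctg
Cyp4b1 (chr4:115647672-115647971, - strand, GRCm38.p6): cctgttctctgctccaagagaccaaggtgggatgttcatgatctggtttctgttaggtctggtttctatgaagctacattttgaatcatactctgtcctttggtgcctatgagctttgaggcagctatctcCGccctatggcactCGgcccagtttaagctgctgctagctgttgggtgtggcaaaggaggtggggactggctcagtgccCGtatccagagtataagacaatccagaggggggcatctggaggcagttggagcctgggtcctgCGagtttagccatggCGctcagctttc

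The 3 Cyp4a promoters in the table held few CpG, the dinucleotide whose density marks many Polycomb targets. Cyp4a32 held 3 CpG in its 300 bases, as did Cyp4a29 and Cyp4a30b, against a median of 7 over the 32851 promoters of the table. A count of 3 is also the lower quartile of the table, and 23.3% of promoters had fewer. Their GC content was 42.7% for Cyp4a32, 39.7% for Cyp4a29 and 42% for Cyp4a30b, and the median of the table was 52.7%. Cyp4b1 held 5 CpG at a GC content of 53%, and 38.0% of promoters in the table had fewer CpG. The Cyp4x1os promoter had 12 CpG and a GC content of 60%, and 60.4% of promoters in the table had fewer CpG. Of Cyp4 genes elsewhere in the genome, the Cyp4f genes and Cyp4v3, 9 genes had 13 promoters in the table, with 0 to 17 CpG and a median of 2. These counts describe letters only. Whether a promoter lay under an island was not determined.

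**Figure D1:**
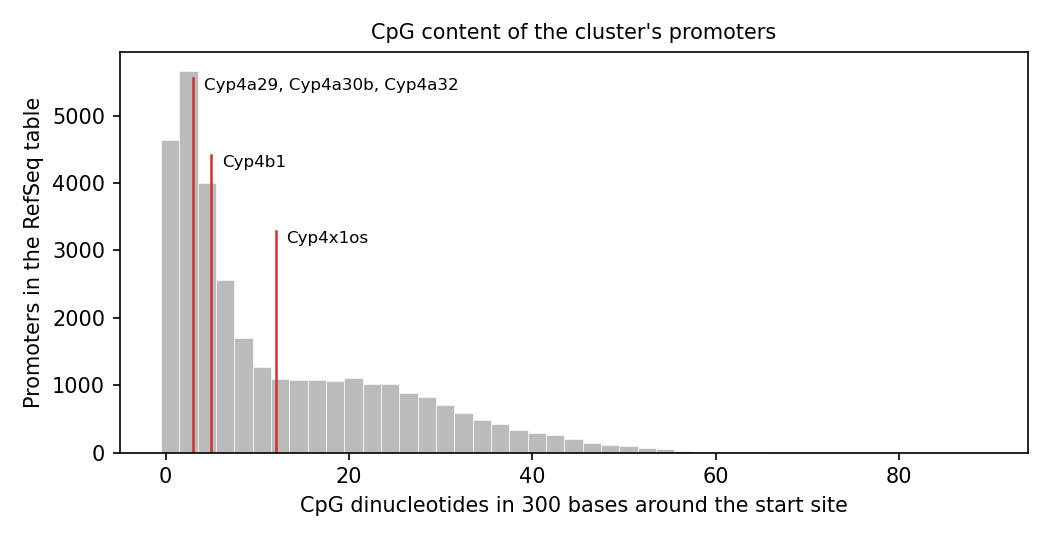
CpG dinucleotides in the 300 bases around the start site (horizontal axis) for all 32851 promoters of the RefSeq table (grey bars, number of promoters), with the 5 promoters of the cluster as red lines whose heights have no meaning. Cyp4a29, Cyp4a30b and Cyp4a32 share 3 CpG, Cyp4b1 has 5 and Cyp4x1os 12.

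Binding motifs of nuclear receptors were searched on both strands of the same 5 promoters. The hexamer AGGTCA was found in Cyp4a29 alone and in 16.3% of all promoters. A direct repeat of it spaced by 1 base, the form that PPAR alpha binds with RXR, was found with up to 3 mismatches over both hexamers in Cyp4a29, Cyp4a30b and Cyp4a32, and in 24.6% of all promoters. The repeat spaced by 4 bases, a form that CAR can bind, was found by the same rule in Cyp4a30b and Cyp4a32, and in 21.9% of all promoters. The hexamer TATAAA was found in Cyp4a32, where it lies only on the strand opposite to the printed one, and in 13.6% of all promoters. Exact matches at any position and on either strand were counted, so this search does not tell which of the 5 promoters has a TATA box. A single place can count for more than one of these searches.

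Depth could be judged only from the lists, which give no read numbers. They held 14167 to 20550 islands that spanned 537.2 to 604.6 Mb. Each island carries a score of the caller that grows with its width and with the depth of the library, so scores were compared only within a list. No pair of lists was identical.

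The mark was confined, in these lists, to the Cyp4x1 end of the window. Islands of any liver reached from the low border to 114813200, and the rest of the window, 536.8 kb or 89.5% of it, held no island in any of the 7 livers. Of the window, 40.8 kb or 6.80% lay under islands in all 7 livers. A smaller length, between the low border and 114813200, lay under islands in some livers only. If the gene order holds in mm9, the end that carries Cyp4b1 and the Cyp4a copies next to it lay in the free stretch in vehicle and TCPOBOP livers alike. Absence of an island says only that the caller kept none there.

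**Figure D2:**
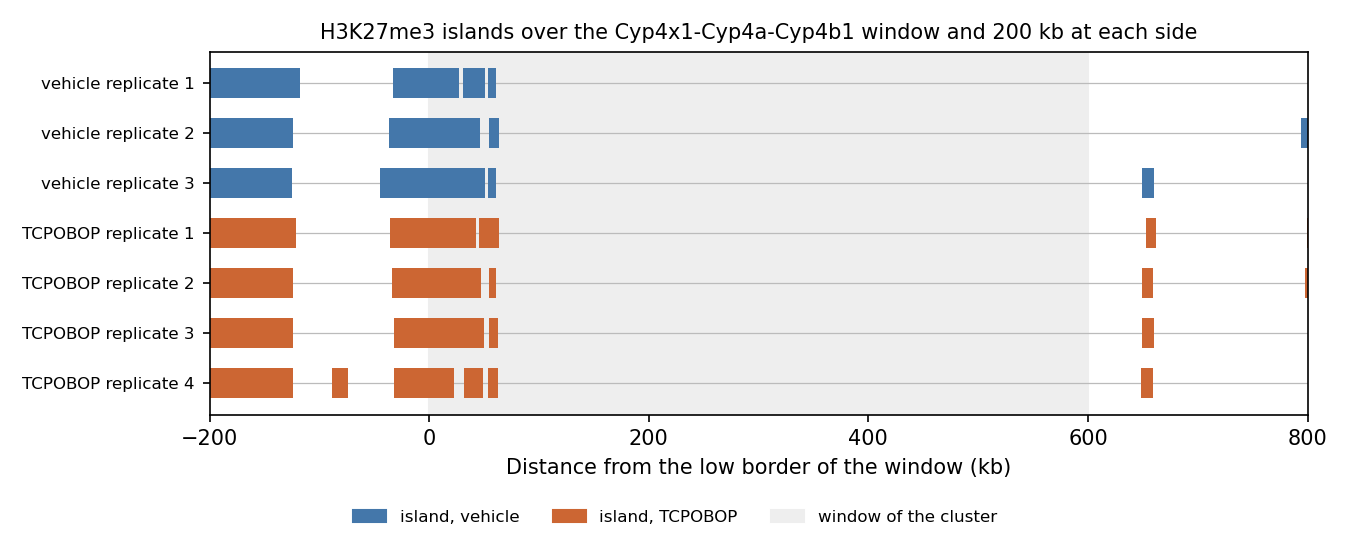
Islands of each liver (1 row per liver, blue for vehicle and orange for TCPOBOP) against the distance in kb from the low border of the window, with the window in grey and 200 kb shown at each side. In all 7 rows the islands of the window end within 63.2 kb of its low border and the rest of the window is empty.

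Each liver had 2 or 3 islands in the window. The first ran over the low border and continued outside the window, toward Pdzk1ip1 and Tal1 in the gene order; Tal1 encodes a transcription factor of blood cells. This island started between 114704801 and 114718001. Its width was 59.6, 83.2 and 96.0 kb in vehicle replicates 1 to 3. In TCPOBOP replicates 1 to 4 it was 78.8, 80.8, 82.0 and 55.2 kb wide. The shortest of each group, vehicle replicate 1 and TCPOBOP replicate 4, were the livers in which a break of 3.6 and 8.8 kb split this domain and left a further island behind it, 20.8 kb and 17.6 kb wide. The start of the island varied by 13.2 kb over the livers.

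The first island ranked high within every list. Its score stood at the 94.6th to 98.3rd percentile of the scores of its own list, and its score per 400-bp window at the 91.9th to 97.6th percentile. The split-off islands of vehicle replicate 1 and TCPOBOP replicate 4 had lower scores per window, at the 72.6th and 79.6th percentile of their lists.

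The last island of the window was narrow and ended at nearly the same place in all livers. It ended at 114811200, 114813200 and 114810800 in vehicle replicates 1 to 3. In TCPOBOP replicates 1 to 4 it ended at 114813200, 114811200, 114812400 and 114812400. The 7 ends thus fell within 2.40 kb, or 6 windows of the caller, and the groups overlapped. In 6 livers the island was 6.40 to 8.80 kb wide. In TCPOBOP replicate 1 it was 17.6 kb wide because the free gap before it lay nearer the low border in that liver, from 114792801 to 114795600.

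This narrow island ranked low by total score and high by score per window. Over the 7 livers its score had percentiles of 2.19 to 58.7 within its list, with a median of 33.4, whereas its score per window had percentiles of 76.3 to 97.5, with a median of 91.2. In vehicle replicate 1 it was among the least by score of the whole list and among the narrowest, at a width percentile of 0.282, with a score per window at the 97.4th percentile. Over the 7 livers its width had percentiles of 0.282 to 37.9. A score per window divides by width, and islands of all widths were ranked together. The contrast of the 2 ranks thus cannot be told apart from an effect of narrow width. A segment of 6 kb, from 114804801 to 114810800, lay under islands in all 7 livers.

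The free gaps between the islands were short. The gap before the last island was 2.80, 8.00 and 2.80 kb long in vehicle replicates 1 to 3 and 2.80, 8.00, 4.40 and 4.40 kb in TCPOBOP replicates 1 to 4. The shortest gap between islands in any of the lists is 2.80 kb, since the caller joins islands across gaps of up to 2400 bp. In vehicle replicates 1 and 3 and TCPOBOP replicate 1 the gap before the last island was thus the least that keeps islands apart. The gap of 8.00 kb was shared by vehicle replicate 2 and TCPOBOP replicate 2.

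**Figure D3:**
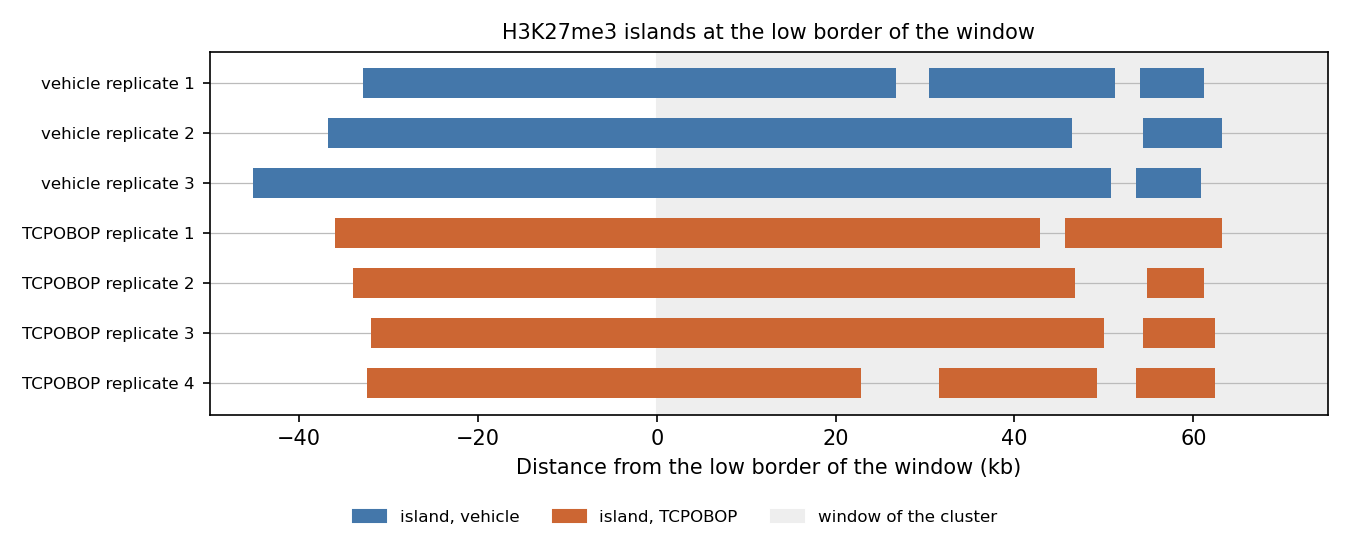
The same islands at the low border of the window, by liver, against the distance in kb from that border; the white part lies outside the window. Rows differ in where the gaps fall, and the last island ends between 60.8 and 63.2 kb in every row.

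Vehicle and TCPOBOP livers had similar cover in the window. Islands spanned 54.8, 55.2 and 58.0 kb of it in vehicle replicates 1 to 3, and 60.4, 53.2, 58.0 and 49.2 kb in TCPOBOP replicates 1 to 4. The highest and the lowest value were both from TCPOBOP livers, and all vehicle values lay between them. As a share of the window the means were 9.33 ± 0.291% (SD, n = 3) with vehicle and 9.20 ± 0.833% (SD, n = 4) with TCPOBOP. The spread between livers exceeded the difference of -0.133 points (95% interval -2.47 to 1.89 points, two-sided exact permutation p = 0.8286, with 0.0286 the smallest p that 35 arrangements allow). Its sign was not stable: without vehicle replicate 3 it was 0.0333 points and without TCPOBOP replicate 4 it was 0.2 points.

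The number of islands and the free stretch did not separate the groups either. Vehicle livers had 3, 2 and 2 islands and TCPOBOP livers 2, 2, 2 and 3 (means 2.33 and 2.25, difference -0.0833, 95% interval -1 to 1.67, exact permutation p = 1). Without vehicle replicate 1 that difference was 0.250. With so many tied counts the permutation test of island number could not give a p under 0.05, so it decides nothing. The longest free stretch of the window was 538.8, 536.8 and 539.2 kb with vehicle and 536.8, 538.8, 537.6 and 537.6 kb with TCPOBOP. Its means were 538.3 ± 1.29 kb (SD, n = 3) and 537.7 ± 0.825 kb (SD, n = 4), a difference of -0.567 kb (95% interval -2.67 to 2.00 kb, exact permutation p = 0.514).

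**Figure D4:**
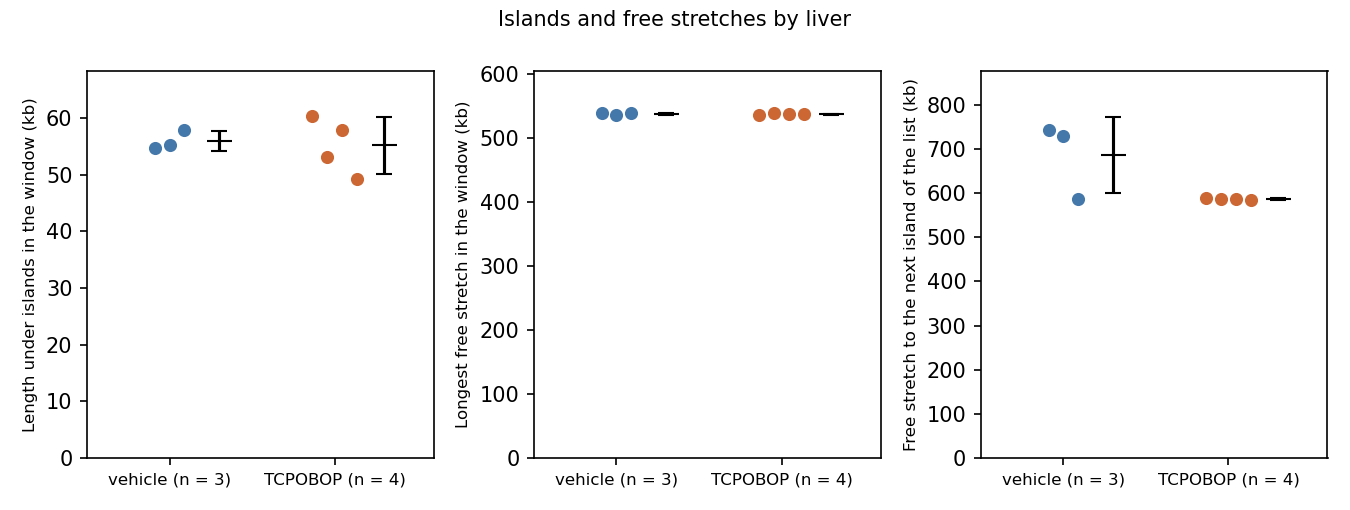
Length under islands in the window, longest free stretch in the window and free stretch up to the next island of the same list, all in kb, by liver (points) with the mean and SD of the 3 vehicle and 4 TCPOBOP livers (black). The first 2 panels overlap between groups; in the third, vehicle replicates 1 and 2 lie at 742.8 and 730.4 kb and the other 5 livers between 585.6 and 589.6 kb.

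The islands of the window belonged to 1 merged region, from 114704801 to 114813200, that was 108.4 kb long with 63.2 kb inside the window. It was under islands over 80.8, 84.9 and 95.2% of its length in vehicle replicates 1 to 3, and over 88.9, 80.4, 83.0 and 75.3% in TCPOBOP replicates 1 to 4. The groups overlapped. The difference was -5.04 points (SE 7.48, limma adjusted p = 1). Without vehicle replicate 3 it was -0.922 points and without TCPOBOP replicate 4 it was -2.83 points. In the window 0 of 1 regions were called by limma at an adjusted p under 0.05. Over the genome limma called 0 of 13988 regions, or 0%, and 542 regions, or 3.87%, had an unadjusted p under 0.05. The region of the window was not among these. Limma without trend and robust variance called 13 regions of the genome and 0 in the window.

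A finer view by bins of 10 kb gave the same count in the window. Of its 7 bins with islands, the first 2, at the low border, were wholly covered in all 7 livers and had no variation to test. The other 5 were tested and 0 were called (lowest limma adjusted p = 0.976, 0 with an unadjusted p under 0.05). Among all 76433 bins tested, 0% were called, and 2287 bins, or 2.99%, had an unadjusted p under 0.05; without trend and robust variance limma called 173 bins, of which 0 were in the window. The bin from 114770001 to 114780000 was covered over 68, 100 and 100% in vehicle replicates 1 to 3 and over 100, 100, 100 and 28% in TCPOBOP replicates 1 to 4. The 2 livers below 100% were those with the split domain, 1 of each group. The bin from 114810001 to 114820000, where the free stretch begins, was covered over 12, 32 and 8% with vehicle and over 32, 12, 24 and 24% with TCPOBOP. The median standard error over all bins was 25.2 points, so a change of a bin would have had to be large to be seen.

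Beyond the Cyp4b1 end the lists of the 2 groups were less alike. A narrow region from 115398001 to 115412000, 48.0 kb beyond the window, held an island of 9.20 to 11.6 kb in all 4 TCPOBOP livers and in vehicle replicate 3, and none in vehicle replicates 1 and 2. It was covered over 0, 0 and 80% with vehicle and over 65.7, 74.3, 77.1 and 82.9% with TCPOBOP. The groups overlapped through vehicle replicate 3. The difference of 48.3 points (SE 24.2) had an unadjusted p of 0.0497 and a limma adjusted p of 1, and Fisher's exact test on the presence of the island gave a two-sided p = 0.143, the smallest that 5 livers of 7 allow. The difference was 75 points without vehicle replicate 3 and 35 points without vehicle replicate 1 or without vehicle replicate 2. The scores of these islands stood at the 11.0th to 38.6th percentile of their lists. The 2 lists without it had the fewest islands, 14167 and 16301, against 16481 to 20550 in the others, and the part of island number in this difference was not tested.

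As a consequence the free stretch that starts in the window ran further in 2 vehicle livers. Measured from the last island of the window to the next island of the same list, it was 742.8, 730.4 and 588.0 kb in vehicle replicates 1 to 3, and 589.6, 587.6, 586.8 and 585.6 kb in TCPOBOP replicates 1 to 4. Vehicle replicate 3 lay inside the range of the TCPOBOP livers. This length was taken as a measure only after the data were seen. The means were 687.1 ± 86.0 kb (SD, n = 3) and 587.4 ± 1.68 kb (SD, n = 4), and the difference of -99.7 kb did not pass the test (95% interval -157.2 to 1.6 kb, exact permutation p = 0.0571). Without vehicle replicate 3 the difference was -149.2 kb. With lists of equal total length it was -66.4 kb and with islands at or above the median score of their list -11.2 kb.

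The window lies between 2 wide domains that all 7 livers shared. On the Cyp4x1 side a region from 114438801 to 114632000 was covered over 91.7 to 99.8% in the 7 livers. On the far side a region from 115543601 to 115668000 was covered over 85.9 to 96.8%. Neither differed between the groups in the limma fit (differences -1.19 points, SE 3.51, and 1.80 points, SE 4.47, adjusted p = 1 for both).

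Beside the rest of the autosomes the window had cover below the median and, with all islands kept, varied little between livers. Its mean over the 7 livers was 9.26%, and the median of 3998 other autosomal windows of the same length was 17.8%. Of these, 35.2% had a lower mean, and 413 had no island in any liver. The 7 values of the window ranged over 1.87 points. Among the 294 windows whose mean lay within 2 points of it, the range was 1.93 to 28.9 points with a median of 11.5, so 0 of them had a narrower one. The comparison was not tested, and a range depends on where a window is cut through its islands. It also depends on the islands kept. With islands at or above the median score of their list, cover ran from 4.47 to 10.1% over the livers. With islands mainly inside the window it ran from 4.40 to 10.1%. No rank among other windows is given for these settings.

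**Figure D5:**
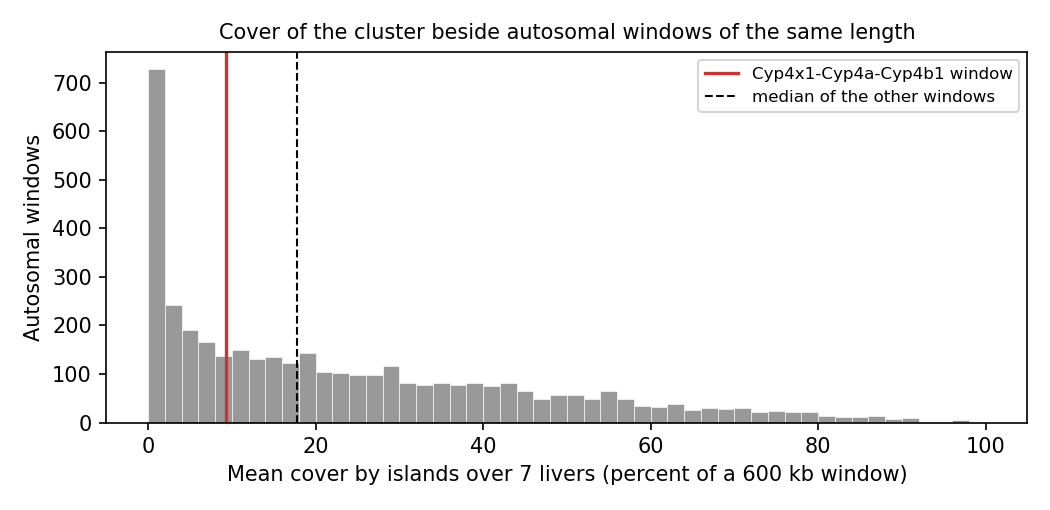
Number of autosomal windows of the same length (vertical axis) by the mean share of the window under islands over 7 livers (horizontal axis, percent, bars of 2 points). The red line is the Cyp4x1-Cyp4a-Cyp4b1 window at 9.26% and the dashed line the median of the other windows at 17.8%.

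The free stretch was among the longer ones of the genome. From 114813201 to 115398000, 584.8 kb held no island in any of the 7 livers. Of 17322 such stretches between islands on the autosomes, 374 or 2.16% were longer, and the median was 20.8 kb. That rank is by number of stretches, many of them short, and not by their share of the genome. Of the 3998 other autosomal windows of 600 kb, 413 were free of islands in all livers. On chromosome 4 it was exceeded by 27 of 969. The window most like the cluster in the 7 covers began at 13800001 on chromosome 13, with a mean absolute difference of 0.848 points over the 7 livers. The window that began at 74400001 on chromosome 11 was next, at 0.905 points. They were followed by windows that began at 31800001 on chromosome 16, at 107400001 on chromosome 1 and at 121200001 on chromosome 7.

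Inside the window the livers shared most of their covered length. The Jaccard index, the base pairs under islands of both livers over those under islands of either, ran from 0.734 to 0.9496 over the 21 pairs of livers, with a median of 0.849.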

How the data were processed

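H3K27me3 was measured by chromatin immunoprecipitation and sequencing in 7 livers. The members and gene lists were chosen with earlier results of these data known. The tools named in the submitters' processing notes are SICER 1.1 and Bowtie2 2.3.2, and the build is mm9. The deposited values are 1 list of islands for each liver, made by the authors without pooling, with a score for each island. Window (400 bp), gap (2400 bp) and E-value (100) were read from the names of the lists. The use of input, filters and duplicate reads is not given in the sources used here. A SICER score grows with width and depth, so a list with more reads can keep fainter islands.

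Islands were cut at the borders of the window, and cover, counts and free stretches were computed in Python 3.11.15 (NumPy 2.4.6, SciPy 1.17.1). Groups were compared with two-sided exact permutation tests. Islands merged across lists, and bins of 10 kb, with islands in at least 2 livers and unequal fractions, were compared genome-wide in R 4.3.3 by limma 3.58.1, with a variance trend, robust variance and Benjamini-Hochberg adjustment at 0.05. The fit was tested on simulated data whose fractions lay away from the extremes and varied less than those here. That test does not show how limma performs on fractions like those of these lists. Alternatives were other island filters, window borders, bins, variance settings, a replicate block and leaving out each liver. The rule named the 8 members, their neighbours and every region of the window. The fit per gene was left out, since positions of genes in mm9 were not used here. The limma tests took fractions as approximately continuous values.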

Additional observations from a re-analysis of the deposited data

Results flagged for a closer look

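TCPOBOP replicate 4 had 3 islands in the window against 2 in each of the other 3 TCPOBOP livers, and so stood apart within its group. The third island came from the break of 8.80 kb in the domain at the Cyp4x1 end. Vehicle replicate 1 had 3 islands as well. Of 8 values by liver examined in the TCPOBOP group this was the only one that stood apart. Island number takes whole values, so with the others equal a single liver that differs always stands apart, and the chance rate for continuous values, about 1 in 20 groups, does not apply to it.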

How the results depend on the processing

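The free stretch of the window kept its direction or was equal between the groups under all 13 alternatives, with differences of -33.8 to 0 kb and exact permutation p of 0.0571 to 1; leaving out 1 liver gave -1.30 to -0.100 kb. The differences in cover and island number were near 0 and changed sign easily. Cover differed by 1.34 points with islands at or above the median score, 0.267 with lists of equal total length, 0.406 with islands mainly inside the window and 0.638 with the window widened by 100 kb at each side (exact permutation p of 0.4 to 0.743). Leaving out 1 liver gave -0.422 to 0.2 points. Island number differed by 0.5 with islands at or above the median score, 0.250 with lists of equal length and 0.833 with the wider window, and by -0.333 to 0.250 without 1 liver. The cause was not tested. With the window narrowed by 100 kb no island remained in any liver.

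The replicate numbers did not pair the livers, apart from number 2. Deviations from the group means over bins of the genome correlated at 0.0258, 0.181 and 0.0424 for numbers 1 to 3. Only vehicle replicate 2 correlated best with its own number, and the highest correlation between unlike numbers was 0.0515. The lists of vehicle replicate 2 and TCPOBOP replicate 2 both spanned 537.2 Mb, the least of the 7. What these 2 livers share was not tested. With the replicate block cover differed by 0.2 points, island number by -0.333 and the free stretch by -0.533 kb (exact sign-flip p = 1 for each, where 3 pairs allow no p below 0.25). Limma called 0 regions and 0 bins with the block, and the region at the low border differed by -2.83 points.

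In the window limma called 0 regions under all 12 alternatives and 0 bins under all 13. Over the genome it called 13 regions and 173 bins without trend and robust variance, and 1 region when those with an island in 1 liver were added; the other alternatives, leaving out each liver included, gave 0. The region at the low border differed by 3.14 points with islands at or above the median score (limma adjusted p = 1.00) in place of -5.04; leaving out 1 liver gave -8.12 to -0.922 points, the smallest without vehicle replicate 3. The lists hold no read numbers, so the depth needed to see a faint island in the free stretch is unknown. The region beyond the high border had no value with islands at or above the median score, and the fits per gene were not run because positions of genes in mm9 were not used here. The stretch up to the next island and its alternatives were chosen after seeing the data. Fisher's test on the narrow region beyond the window was not planned either.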
